A study of Mus musculus with 3 samples.

Results

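The 34 genes described here are targets of type I interferon in mouse liver: antiviral effectors, nucleic acid sensors, and the transcription factors that carry the interferon signal. They were taken by name from a fixed list, and all 34 were found among the 41799 genes of the files. The samples were livers of C57BL/6 males, 14 weeks old, each group sequenced as a single RNA library. The control group was fed regular chow, the second group a high-fat diet, and the third the same kind of diet plus DfCS-Ib by gavage at 40 mg/kg in 0.3 ml of distilled water. The series describes the agent, known here by that code, as a sulfated oligosaccharide. Groups had 8 mice (5 groups are mentioned and 3 described), but the labels do not say how many gave RNA to a library, what the high-fat diet contained, how long it lasted, or whether the other two groups received a mock gavage. All mice share the C57BL/6 background and no allele or transgene is named. Because each group is 1 library, no difference below has a replicate check: every comparison describes these libraries, and the ranges in parentheses beside a ratio are 95% exact (Clopper-Pearson) intervals that cover counting error only.

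Type I interferons are secreted proteins made by cells that detect foreign or misplaced nucleic acid. They bind the receptor chains IFNAR1 and IFNAR2, and the kinases JAK1 and TYK2 then phosphorylate STAT2, which joins IRF9 in a complex called ISGF3. ISGF3 enters the nucleus and binds a promoter sequence, the interferon-stimulated response element (ISRE), at the genes described here. In liver, hepatocytes, Kupffer cells (the resident macrophages) and endothelial cells can all respond.

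Chow had 11028671 counts in all, the high-fat diet 12279537 and DfCS-Ib 10969699. Levels are given as CPM, the count of a gene relative to its library total after scaling with TMM factors, and sets of 3 values follow the order chow, high-fat diet, DfCS-Ib. A gene was measured where its mean was at least 1 CPM, which held for 13153 genes and for 34 of the 34 interferon-stimulated genes, and was counted as higher or lower where the log2 ratio of CPM plus 1 was at least 2-fold. Hepatocyte markers took 13.1%, 11.1% and 11.5% of the counts, so the libraries carry liver RNA. Their summed CPM, most of it Alb, was 1.26-fold (1.26 to 1.27) lower on the high-fat diet than in chow, but the 8 markers were divided: 3 were higher, with Ttr at 1.64-fold, Apoc3 at 1.56-fold and Apoa1 at 1.07-fold, and of the 5 lower ones Tat and Cps1 passed 2-fold.

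The high-fat diet library stood above the chow library for every one of the 34 genes. Summed over the 34, the level was 436 CPM in chow, 841 CPM on the high-fat diet and 866 CPM with DfCS-Ib. The high-fat sum was thus 1.93-fold (1.86 to 1.99) the chow sum. The DfCS-Ib sum was 1.98-fold (1.91 to 2.05) the chow sum and 1.03-fold (1.002 to 1.06) the high-fat sum. Without TMM factors the last order turned round. The 34 genes took 0.0881% of all counts on the high-fat diet and 0.0847% with DfCS-Ib, so that small difference depended on the scaling. Chow had the lowest level of the 3 libraries for 34 of 34 genes, against 35.1% of all measured genes. The highest level was in the high-fat library for 16 genes and in the DfCS-Ib library for 18. In bulk liver, fewer cells of a type and less RNA per cell cannot be told apart.

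**Figure D1:**
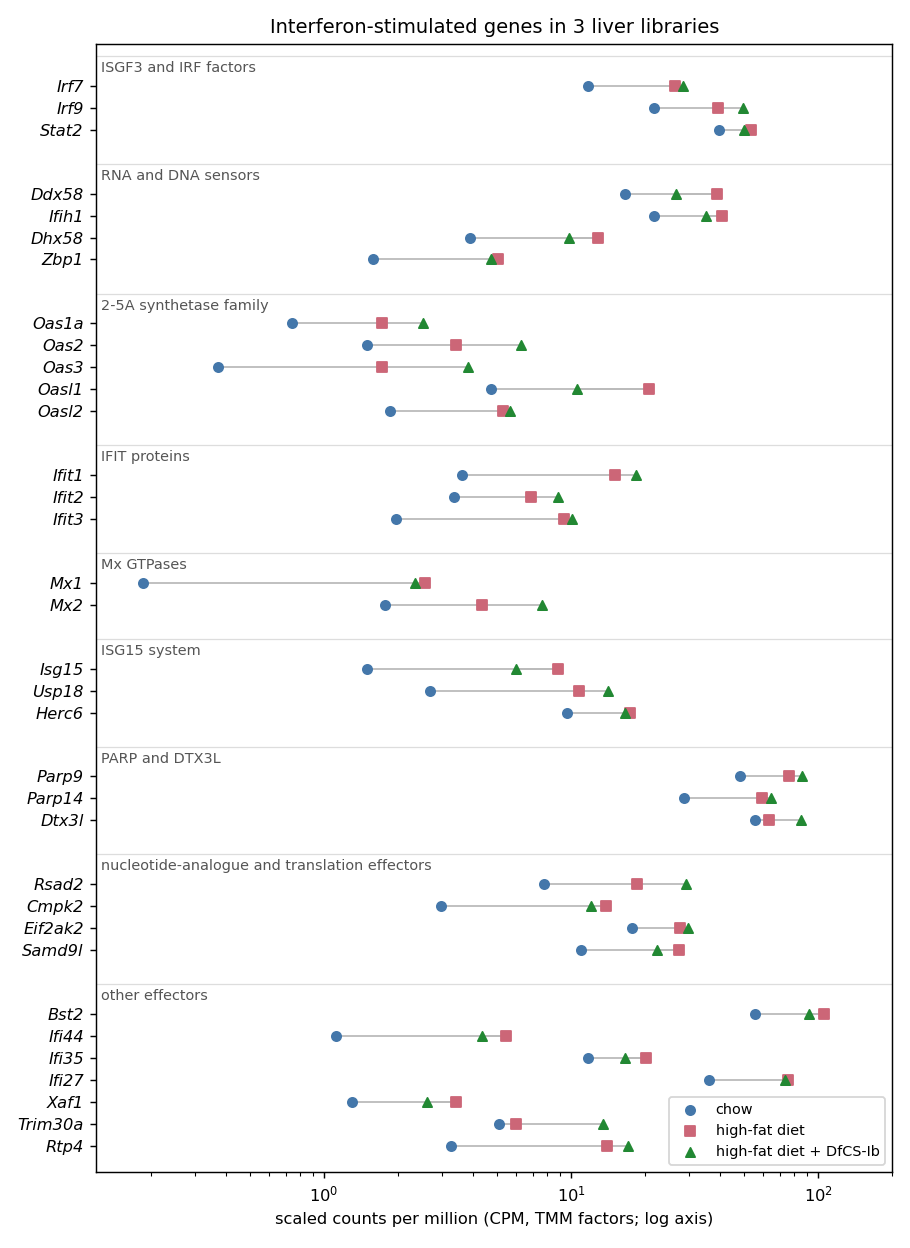
Level of each of the 34 interferon-stimulated genes in the 3 libraries, in CPM on a log axis, grouped by role. Circles are chow, squares the high-fat diet and triangles the high-fat diet with DfCS-Ib, 1 library each. The circle is the leftmost point for all 34 genes, while squares and triangles change places from gene to gene.

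For the high-fat diet against chow, 18 of the 34 genes passed 2-fold upward and 0 downward, where 3.47% of all measured genes were higher by that much and 2.27% lower (5.74% either way). Without the added 1, and with a counting interval not reaching 1, 23 of the 34 passed upward (5.41% of all measured genes). The median log2 ratio was 1.03 over the 34 genes and 0.02 over all measured genes, with a range of 0.19 to 1.99 over the 34. The ratio was above 1 for 34 of 34 genes (51.9% of all measured genes), and its counting interval lay wholly above 1 for 32 of them (23.3% of all). The 2 whose interval reached 1 were Oas1a and Trim30a. Over all genes the split of calls depended on the scaling: 457 were higher and 298 lower (60.5% higher), but 573 and 242 with library totals alone (70.3% higher), where 22 of the 34 were counted as higher.

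For DfCS-Ib against the high-fat diet the 34 genes showed no common direction. Only Trim30a passed 2-fold upward and 0 genes downward, where 2.46% of all measured genes were higher by that much and 2.02% lower (4.49% either way). Without the added 1, and with a counting interval not reaching 1, Oas3 passed 2-fold upward too (3.75% of all measured genes). The median log2 ratio was 0.09, with 18 genes above 0 (48.5% of all measured genes) and 16 below. With library totals alone, or with the deposited RPKM, the sides were 16 and 18 and the median -0.00, as Ifit3 and Eif2ak2 crossed 0. Over all genes 54.9% of the calls were higher, and 43.4% with library totals alone. The counting interval lay above 1 for 9 genes, when this was so for 20.5% of all measured genes, and below 1 for 7, against 21.1% of all, shares of the 34 genes close to the background.

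Against chow, the DfCS-Ib library had 23 of the 34 genes past 2-fold upward and 0 downward, where 1.62% of all measured genes were higher by that much and 0.433% lower (2.05% either way). The median log2 ratio was 1.15, and 0.00 over all measured genes. The interval lay above 1 for 34 of the 34 genes, against 16.0% of all measured genes. This comparison shares the chow library with the high-fat comparison, so the pair of counts are not separate evidence.

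**Figure D2:**
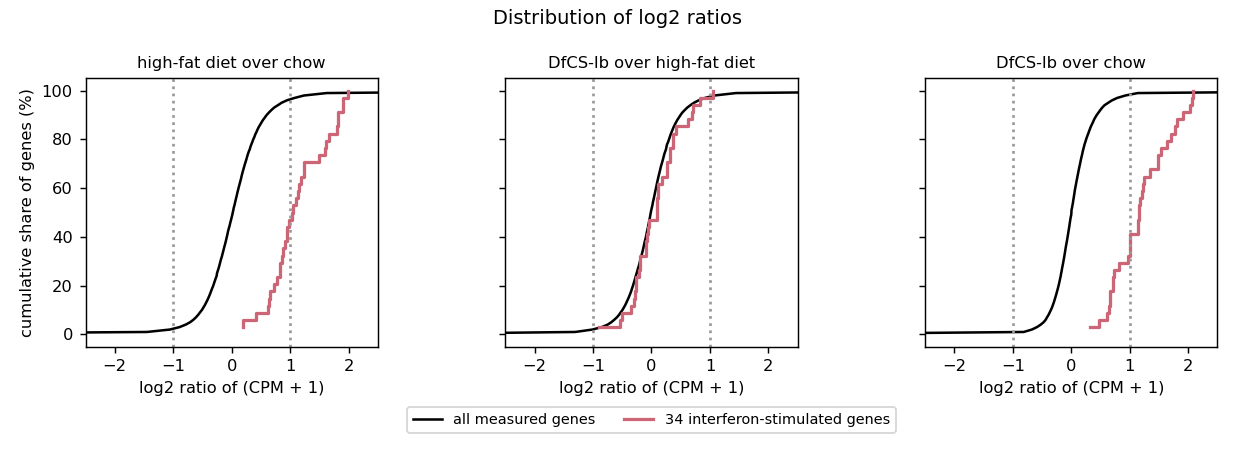
Cumulative share of genes (%) against the log2 ratio of CPM plus 1, for 34 interferon-stimulated genes (stepped line) and 13153 measured genes (smooth line) in the 3 comparisons. Dotted lines mark a 2-fold difference. The stepped line lies to the right in both comparisons with chow, with medians of 1.03 and 1.15, and close to the smooth line for DfCS-Ib over the high-fat diet, with a median of 0.09.

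RefSeq promoter windows of GRCm38.p6, the assembly behind mm10, were searched for the element that ISGF3 binds. Windows of 300 bases, 250 before and 50 after the gene start, were matched for 24 of the 34 genes (27 windows, since some genes have more than 1 start). The search covered both strands and used a core of the ISRE, which is GAAA, any NN and GAAA again without a break, and TTCNNNGAA, a core of the gamma-activated site called GAS. The ISRE core was in 13 of the 27 windows (48.1%), against 3.44% of the 32851 windows of the table. The GAS core was in 5 of the 27 (18.5%), against 8.30% of all. The other 10 of the 34 genes had no entry. In Bst2 a match of each motif overlapped.

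Promoters are shown for 6 genes, 1 per role group where available: the gene of largest high-fat to chow log2 ratio among those with an ISRE core before the start. Each is the 250 bases up to the start, read 5′ to 3′ along the gene, with ISRE core matches on either strand in capitals (overlapping matches run together).
Isg15, chr4:156200819-156201068, minus strand: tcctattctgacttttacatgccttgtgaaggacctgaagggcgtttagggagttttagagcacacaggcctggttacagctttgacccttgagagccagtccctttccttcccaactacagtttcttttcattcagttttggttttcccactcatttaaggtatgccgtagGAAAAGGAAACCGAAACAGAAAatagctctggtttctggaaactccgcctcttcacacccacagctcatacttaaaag
Ifit3, chr19:34583279-34583528, plus strand: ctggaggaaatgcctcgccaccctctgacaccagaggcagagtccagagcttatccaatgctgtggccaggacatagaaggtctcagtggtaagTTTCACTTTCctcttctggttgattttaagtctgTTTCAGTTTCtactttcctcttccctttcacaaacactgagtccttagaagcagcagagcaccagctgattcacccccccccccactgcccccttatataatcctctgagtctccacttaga
Rsad2, chr12:26456453-26456702, minus strand: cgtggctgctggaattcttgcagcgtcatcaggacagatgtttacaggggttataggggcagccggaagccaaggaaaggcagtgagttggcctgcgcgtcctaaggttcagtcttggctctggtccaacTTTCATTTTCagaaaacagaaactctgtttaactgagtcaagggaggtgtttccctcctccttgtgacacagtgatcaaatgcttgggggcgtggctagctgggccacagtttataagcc
Oas3, chr5:120777660-120777909, minus strand: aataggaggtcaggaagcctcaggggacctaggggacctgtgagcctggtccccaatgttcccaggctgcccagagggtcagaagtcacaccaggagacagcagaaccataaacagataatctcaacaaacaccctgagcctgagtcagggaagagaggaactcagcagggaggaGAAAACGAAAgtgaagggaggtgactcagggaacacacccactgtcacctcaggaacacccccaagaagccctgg
Bst2, chr8:71537473-71537722, minus strand: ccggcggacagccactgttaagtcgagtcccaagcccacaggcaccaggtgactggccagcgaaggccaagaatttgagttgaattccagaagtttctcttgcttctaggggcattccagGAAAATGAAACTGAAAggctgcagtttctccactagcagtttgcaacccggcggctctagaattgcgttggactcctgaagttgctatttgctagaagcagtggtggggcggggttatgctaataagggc
Stat2, chr10:128270248-128270497, plus strand: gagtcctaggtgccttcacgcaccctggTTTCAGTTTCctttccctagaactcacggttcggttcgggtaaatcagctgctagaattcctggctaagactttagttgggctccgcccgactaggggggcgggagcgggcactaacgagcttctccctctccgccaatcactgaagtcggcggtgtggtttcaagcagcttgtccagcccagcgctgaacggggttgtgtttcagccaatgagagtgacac

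Isg15 had 3 overlapping ISRE cores between bases -78 and -57 from the start, Ifit3 had matches at -156 and -122, and Ifit1, not shown, had 2 at -104 and -85. Bst2 had 2 overlapping cores from -130 to -115, and Oas1a 2 from -20 to -5. In Ifih1, Ddx58 and Eif2ak2 the match lay after the start, at 33, 3 and 19. A match is a description of the letters, not a measured binding site. Over chow, the medians of genes with and without the core were close: the median log2 ratio of the high-fat diet over chow was 0.95 for the 12 genes with it and 1.02 for the 12 without, and for DfCS-Ib over chow 1.13 and 1.08. For DfCS-Ib over the high-fat diet the medians lay on either side of 0, at 0.09 with the core and -0.13 without.

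**Figure D3:**
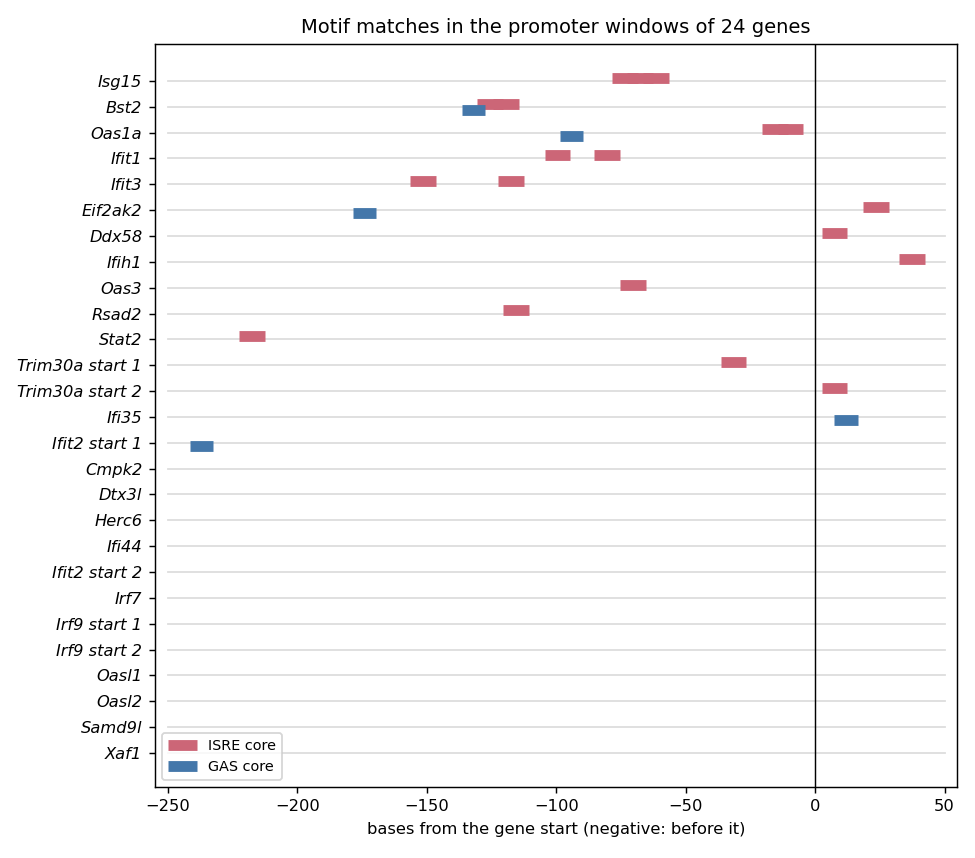
Position of ISRE core and GAS core matches in 27 promoter windows of 24 interferon-stimulated genes, in bases from the gene start. Each grey line is 1 window and each bar 1 match. Most ISRE matches lie before the start, the farthest in Stat2 at -222, and 12 of the 24 genes have an ISRE match.

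The factors that carry the signal differed among themselves. Irf7, the factor that amplifies interferon production (chromosome 7, 141263183 to 141266499 of mm10), had 11.7, 26.3 and 28.5 CPM. Irf9, the DNA-binding subunit of ISGF3, had 21.7, 39.5 and 49.5 CPM. Stat2, its partner in that complex, had 39.9, 53.5 and 50.2 CPM. Irf7 was thus 2.24-fold (1.82 to 2.77) above chow on the high-fat diet and Irf9 1.82-fold (1.55 to 2.13), but Stat2 only 1.34-fold (1.19 to 1.52). In the DfCS-Ib library Irf9 lay 1.25-fold (1.11 to 1.42) above the high-fat library, while the intervals of Irf7 and Stat2 reached 1.

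The 4 sensors were all higher on the high-fat diet than in chow, as were all 34 genes. All 4 were lower in the DfCS-Ib library than in the high-fat library. That held for 16 of the 34 genes and for 6771 of the 13153 measured genes. Both comparisons share the high-fat library, so the rise and the fall are not separate evidence. Ddx58 encodes RIG-I, a receptor for RNA with a 5′ triphosphate, and had 16.5, 38.9 and 26.7 CPM. Ifih1, which encodes MDA5, a receptor for long double-stranded RNA, had 21.7, 40.7 and 35.05 CPM. Dhx58, for LGP2, a relative that modulates both, had 42, 165 and 105 counts. Chow was lowest and DfCS-Ib between the other two in each. Between the high-fat and chow libraries Dhx58 differed by 3.29-fold (2.33 to 4.73), Ddx58 by 2.35-fold (1.98 to 2.81) and Ifih1 by 1.88-fold (1.61 to 2.20). In the DfCS-Ib library Ddx58 was 1.46-fold (1.26 to 1.69) below the high-fat library, Dhx58 1.31-fold (1.02 to 1.69) and Ifih1 1.16-fold (1.02 to 1.33) below it. Zbp1, a sensor of Z-form nucleic acid, had 17, 65 and 51 counts, and its DfCS-Ib to high-fat interval reached 1.

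The oligoadenylate synthetase family, whose catalytic members make the messenger that switches on RNase L, was split between the treated and untreated high-fat libraries. Oas3 had 4, 22 and 41 counts, Oas2 had 16, 44 and 67, and Oas1a had 8, 22 and 27. Chow was lowest and DfCS-Ib highest in each. Oasl1, a member of the family without synthetase activity, was highest in the high-fat library, with 51, 265 and 113 counts or 4.74, 20.6 and 10.5 CPM. Its high-fat level was 4.35-fold (3.21 to 5.99) that of chow, and its DfCS-Ib level was 1.96-fold (1.56 to 2.46) below that of the high-fat library, the widest gap downward among the 34 genes. Oas3 and Oas2 were 2.24-fold (1.30 to 3.94) and 1.83-fold (1.23 to 2.74) above the high-fat library with DfCS-Ib. The Oas1a ratio there, 1.47-fold (0.807 to 2.71), had an interval that reached 1. Against chow, Oas3 was higher by 4.60-fold (1.56 to 18.4) on the high-fat diet and by 10.3-fold (3.72 to 39.5) with DfCS-Ib, from 4 counts in chow.

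Oasl2 had 20, 68 and 61 counts and differed little between the high-fat and DfCS-Ib libraries, at 1.08-fold (0.749 to 1.54). The family lies in 2 groups on chromosome 5: Oasl2 and Oasl1 are 10944 bases apart, and Oas2 and Oas3 3213 bases apart with Oas1a 118596 bases further on. Neighbours Oasl1 and Oasl2 therefore differed in their DfCS-Ib to high-fat ratios, with intervals that do not overlap. Oas1a has close copies beside it, so the division of its reads is uncertain.

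The 3 IFIT genes, whose products bind foreign RNA and block its translation, were lowest in chow by a wide margin and nearly level in the other two libraries. Ifit1 (chromosome 19, 34640889 to 34650009 of mm10) had 39, 194 and 197 counts. Ifit3 had 21, 121 and 108 counts. Ifit2, which lies 6607 bases before Ifit3, had 36, 89 and 95. Ifit3 was 4.82-fold (3.02 to 8.07) and Ifit1 4.16-fold (2.94 to 6.03) above chow on the high-fat diet, while Ifit2 was 2.07-fold (1.39 to 3.14) above it. The intervals of the 3 DfCS-Ib to high-fat ratios all reached 1. Ifit1 is overlapped by a gene model on the opposite strand, and Ifit3 has a near-identical copy in the mouse genome, so their reads may be shared.

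The Mx genes, which encode dynamin-like GTPases that trap viral ribonucleoproteins, had few counts. Mx1 had 2, 33 and 25 counts and Mx2 had 19, 56 and 82. Both were lowest in chow, with Mx1 barely detected there. The high-fat to chow ratio was 13.8-fold (3.53 to 119) for Mx1, resting on 2 counts in chow, and 2.46-fold (1.44 to 4.39) for Mx2. Mx2 was a further 1.76-fold (1.24 to 2.51) higher with DfCS-Ib, whereas the Mx1 interval reached 1. The files list both as miscellaneous RNA rather than protein-coding. C57BL/6 mice are known to carry a disrupted Mx1, so a difference in its RNA is not one in working protein. Whether the Mx2 RNA yields working protein was not measured.

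Isg15 and its deconjugating enzyme were the genes of the ubiquitin-like system that stood furthest above chow. Isg15, whose product is attached to proteins as ubiquitin is, had 16, 114 and 64 counts, or 1.49, 8.86 and 5.97 CPM. Usp18, which removes it and also blocks the interferon receptor, had 29, 138 and 151 counts. Herc6, the ligase that attaches ISG15 in mice, had 104, 223 and 177 counts. Isg15 was 5.96-fold (3.52 to 10.8) above chow on the high-fat diet. Its log2 ratio of CPM plus 1, at 1.99, was the top of the 34. Without the added 1, Mx1 ranked above it at 13.8-fold (3.53 to 119), from 2 counts in chow. With DfCS-Ib, Isg15 was 1.49-fold (1.08 to 2.05) below the high-fat library but still 4.01-fold (2.29 to 7.44) above chow. Usp18 lay the other way, at 1.31-fold (1.03 to 1.67) above the high-fat library and 5.22-fold (3.49 to 8.06) above chow. Herc6 was 1.79-fold (1.41 to 2.29) above chow on the high-fat diet.

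**Figure D4:**
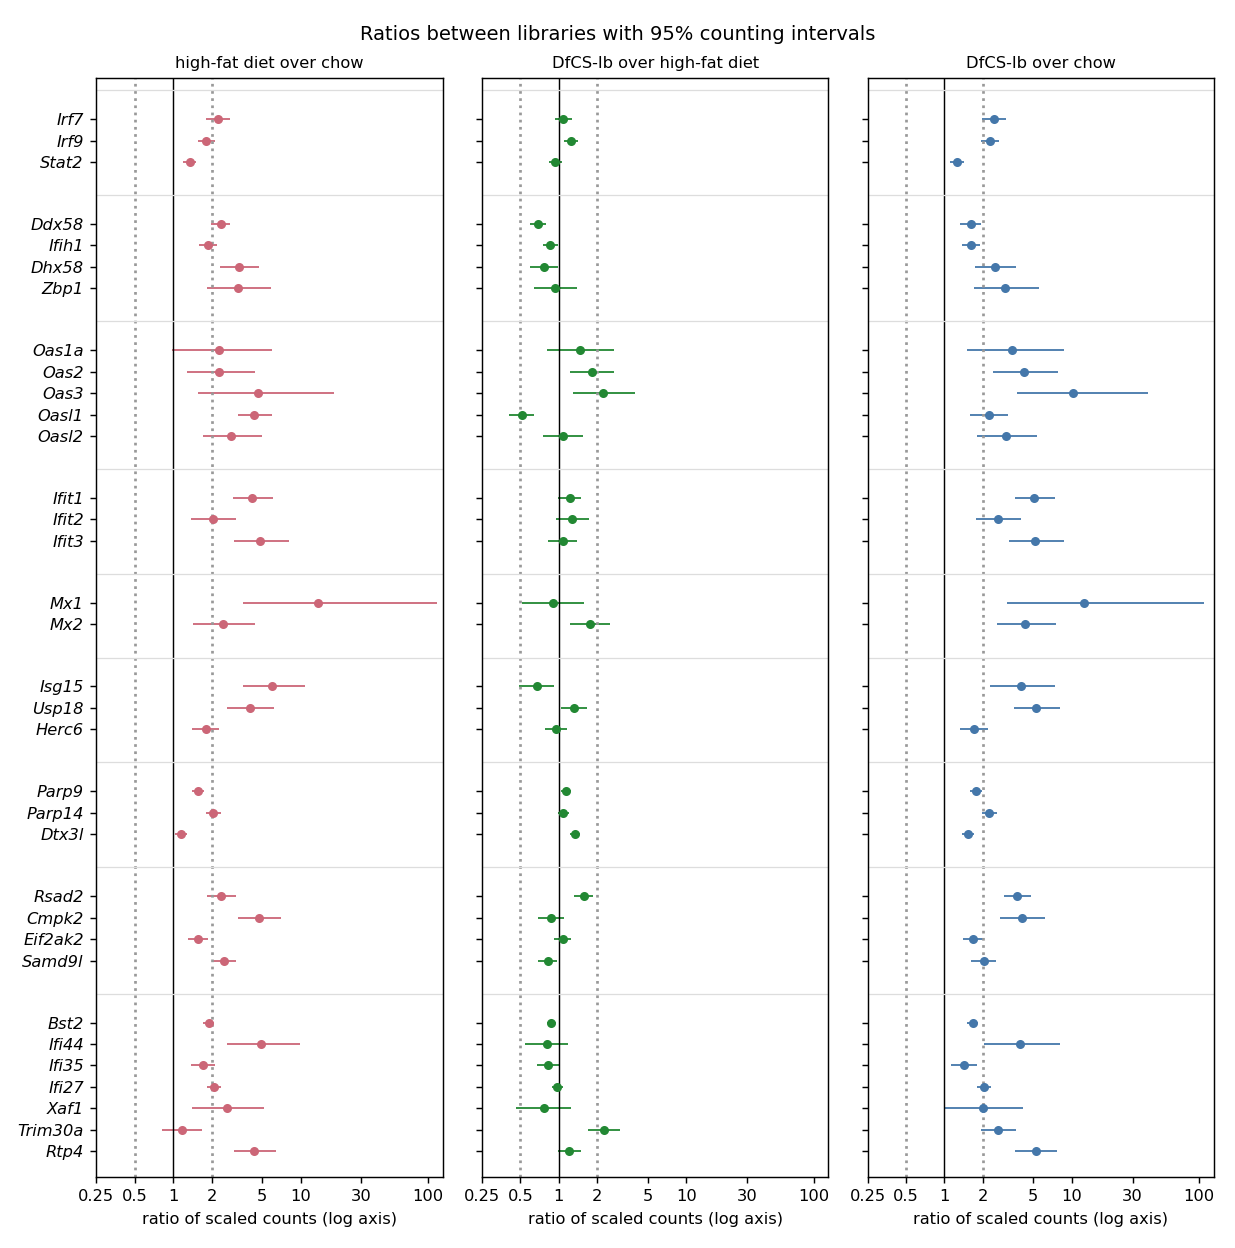
Ratio of scaled counts between pairs of libraries for each gene on a log axis, with 95% exact counting intervals, in the row order of the plot of levels. The solid line marks 1 and dotted lines 2-fold either way. In the left and right panels all 34 points lie above 1. In the middle panel 18 points lie above 1 and 16 below, from Oasl1 (1.96-fold lower) to Trim30a (2.26-fold higher).

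PARP9 and DTX3L form a complex that modifies histones and viral proteins, and PARP14 is a related ADP-ribosyltransferase. Parp9 had 48.4, 76.4 and 86.4 CPM, Parp14 had 28.6, 59.2 and 64.4, and Dtx3l had 55.3, 63.5 and 85.0. The order of libraries was the same in each, but the steps were not. Parp14 was 2.07-fold (1.81 to 2.37) and Parp9 1.58-fold (1.42 to 1.76) above chow on the high-fat diet, against 1.15-fold (1.03 to 1.28) for Dtx3l. Dtx3l then lay 1.34-fold (1.22 to 1.47) above the high-fat library with DfCS-Ib, and Parp9 1.13-fold (1.03 to 1.24) above it. Parp9 and Dtx3l are transcribed away from each other on chromosome 16 and their models overlap by 558 bases. Without a stated strand setting, reads of that stretch cannot be told apart.

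Rsad2 and Cmpk2 are head-to-head neighbours 12580 bases apart on chromosome 12. Rsad2 encodes viperin, an enzyme that makes a chain-terminating nucleotide, and Cmpk2 a nucleotide kinase that feeds it. Rsad2 had 84, 239 and 314 counts and Cmpk2 had 32, 179 and 129. On the high-fat diet Cmpk2 was 4.68-fold (3.20 to 7.05) and Rsad2 2.38-fold (1.85 to 3.09) above chow. With DfCS-Ib, Rsad2 was 1.58-fold (1.33 to 1.87) above the high-fat library, whereas the Cmpk2 interval of 0.684 to 1.09 reached 1. The intervals of the pair do not overlap in either comparison.

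Eif2ak2, for the kinase PKR that stops translation on double-stranded RNA, had 17.7, 27.7 and 29.6 CPM. Samd9l, for another restriction factor that acts on translation, had 10.97, 27.4 and 22.4 CPM. The high-fat diet value was 1.57-fold (1.31 to 1.88) that of chow for Eif2ak2 and 2.49-fold (2.02 to 3.10) for Samd9l. Samd9l was 1.22-fold (1.03 to 1.45) lower with DfCS-Ib than without.

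Among the other effectors, the most abundant of all 34 genes per length was Bst2, for tetherin, which holds budding virus at the cell surface. Its deposited RPKM, a level per kilobase that can be compared between genes, was 70.2, 143 and 117. Ifi27, for a small membrane protein, followed with 27.5, 61.5 and 56.1 RPKM. Both had chow as the lowest library by far. The lowest of the 34 by its mean was Oas3, with 0.0769, 0.380 and 0.792 RPKM. In scaled counts Bst2 was 1.90-fold (1.73 to 2.10) above chow on the high-fat diet and 1.14-fold (1.05 to 1.24) lower with DfCS-Ib than without. Ifi27 was 2.09-fold (1.85 to 2.35) above chow and differed by no more than its interval between the other two. The model of Ifi27 is overlapped by Ifi27l2a, of the same family, on the opposite strand.

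Rtp4, a chaperone gene also known to restrain interferon responses, had 35, 180 and 182 counts. Ifi44, an effector of uncertain mechanism, had 12, 70 and 47. Xaf1, linked to apoptosis, had 14, 44 and 28. These 3 were several times lower in chow, by 4.30-fold (2.98 to 6.37), 4.88-fold (2.62 to 9.89) and 2.63-fold (1.41 to 5.19) against the high-fat library. Ifi35, which encodes a leucine-zipper protein, had 126, 258 and 178 counts and was 1.71-fold (1.38 to 2.14) above chow. The DfCS-Ib to high-fat intervals of these 4 all reached 1.

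Trim30a, a ubiquitin ligase gene that limits inflammatory signalling, had its widest step between the high-fat and DfCS-Ib libraries. It had 55, 77 and 145 counts, or 5.11, 5.98 and 13.5 CPM, so chow and the high-fat diet lay close together and DfCS-Ib apart. The high-fat to chow ratio was 1.17-fold (0.818 to 1.69). The DfCS-Ib library was 2.26-fold (1.70 to 3.02) above the high-fat library and 2.64-fold (1.93 to 3.68) above chow. Trim30a has close copies nearby, so part of its reads may belong to them.

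Few reads of the interferons themselves were counted. Of 21 interferon ligand genes, 19 were listed at 0 in all 3 libraries, Ifnb1 among them. Ifng, for interferon gamma, had 2, 0 and 0 counts, and Ifnk 0, 0 and 5. Genes that liver is known to express, such as H2-K1 and Tap1, were also listed at 0 throughout, so a 0 in these files sets no upper limit and absence was not shown. None of the 5 measured receptor genes was 2-fold apart in any comparison: Ifnar1 had 592, 683 and 604 counts and Ifnar2 had 701, 826 and 796.

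The receptor-bound kinases were measured too. Jak1 had 1598, 1651 and 1692 counts and Tyk2 had 197, 309 and 175, and neither was 2-fold apart in any comparison. Among 12 measured genes that induce interferon, 1 was at least 2-fold higher on the high-fat diet than in chow (3.47% of all measured genes). That gene was Ikbke, a kinase that activates IRF factors, with 10.3, 23.5 and 15.0 CPM. The RNA receptor gene Tlr7 was the 1 gene of that list at least 2-fold higher with DfCS-Ib than without (2.46% of all). It had 32, 25 and 81 counts. Irf1, which responds to both interferon types, had 14.8, 20.7 and 22.9 CPM.

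A list of 8 measured genes, most of them inhibitors of cytokine signalling, had no common direction. On the high-fat diet Cish was at least 2-fold higher than in chow (3.47% of all measured genes). Socs2 was at least 2-fold lower (2.27% of all). Socs2 had 34.3, 6.37 and 10.3 CPM, Cish 9.57, 21.6 and 5.78 CPM and Socs3 7.99, 4.12 and 14.0 CPM. With DfCS-Ib, Socs3 was 3.39-fold (2.47 to 4.74) above the high-fat library and Cish was at least 2-fold below it.

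Other interferon-stimulated genes, outside the 34, mostly lay above chow too, with smaller median ratios. Of 41 measured, 10 were at least 2-fold higher on the high-fat diet than in chow (3.47% of all measured genes) and 0 lower (2.27%). A ratio above 1 was found for 39 (51.9% of all), and the median log2 ratio was 0.63. For DfCS-Ib over chow 12 of 41 were at least 2-fold higher (1.62% of all) and 0 lower (0.433%), with a median of 0.71. For DfCS-Ib over the high-fat diet 0 of 41 passed 2-fold either way (4.49% of all) and the median was 0.01. The counting interval lay above 1 for 9 of the 41 (20.5% of all) and below 1 for 13 (21.1%). The summed level of this list was 1.14-fold (1.12 to 1.16) lower with DfCS-Ib than without, at 1670 against 1904 CPM. A sum follows its most abundant genes, here Lgals9 with 270, 473 and 302 CPM. By gene the list was divided, with 21 of the 41 above 0 on the log2 scale and 20 below. The RNA helicase gene Ddx60 had 17, 119 and 67 counts. Ube2l6, the conjugating enzyme for ISG15, had 13.8, 45.5 and 32.7 CPM, and Ifitm3, which blocks viral fusion, 92.1, 268 and 196 CPM. Apol9a had 47, 213 and 191 counts. Chow was lowest in each. Of the 11 measured GTPases of the Gbp and Irg families, 5 were at least 2-fold higher on the high-fat diet than in chow (3.47% of all). Iigp1 among them had 106, 344 and 361 CPM.

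**Figure D5:**
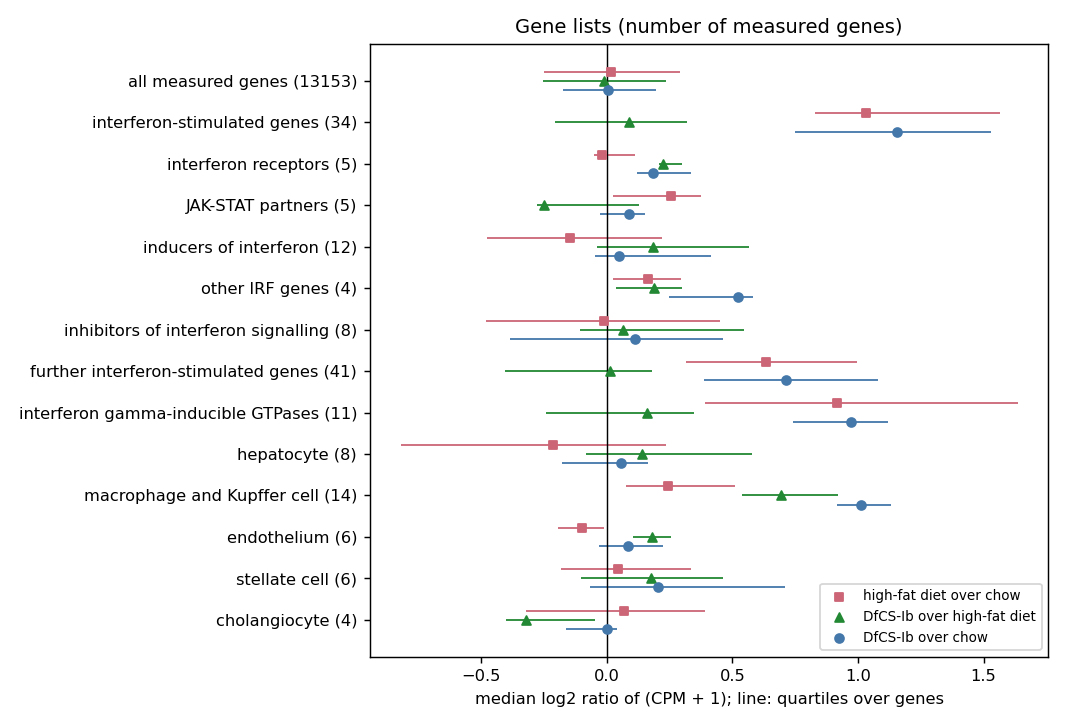
Median log2 ratio of CPM plus 1 for gene lists with at least 4 measured genes, with quartiles over genes as lines and the number of measured genes in brackets. Squares are the high-fat diet over chow, triangles DfCS-Ib over the high-fat diet and circles DfCS-Ib over chow. The interferon-stimulated genes have medians of 1.03 and 1.15 over chow, and the macrophage and Kupffer cell markers 0.24 and 1.01.

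Macrophage and Kupffer cell markers moved with part of this. Their 14 genes summed to 449.9, 544 and 967 CPM, 1.21-fold (1.17 to 1.25) higher on the high-fat diet than in chow and 1.78-fold (1.72 to 1.83) higher with DfCS-Ib than without. For the high-fat diet over chow 0 of 14 were at least 2-fold higher (3.47% of all measured genes). A ratio above 1 was found there for 12 of 14 (51.9% of all). For DfCS-Ib over the high-fat diet 3 of 14 were at least 2-fold higher (2.46% of all). All 14 of 14 had a ratio above 1 in that comparison (48.5% of all). For DfCS-Ib over chow 7 of 14 were at least 2-fold higher (1.62% of all). None of the 14 was at 0. The part of these cells in the interferon-stimulated genes was not tested. The sum of the 34 genes was 1.93-fold above chow where the macrophage sum was 1.21-fold above it. Against the high-fat library the sum of the 34 genes was 1.03-fold higher with TMM factors, a direction that depended on the scaling. The macrophage sum was 1.78-fold above that library.

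Lymphocyte, plasmacytoid dendritic cell and neutrophil markers had few counts. Those listed at 0 (Trac, Pacsin1 and the neutrophil marker Ly6g) are given as listed, since a 0 here does not show absence. The 10 T and NK cell markers summed to 44, 55 and 59 counts, and the 4 B cell markers to 11, 34 and 11 counts. Of 6 plasmacytoid dendritic cell markers only Tcf4, which other cells express too, was measured; Siglech had 5, 3 and 7 counts. The 5 neutrophil markers summed to 29, 43 and 52 counts, and the 6 monocyte markers to 60, 104 and 120 counts. The 6 endothelial markers summed to 273, 260.1 and 304 CPM, the 6 stellate cell markers to 134, 135 and 169.6 CPM, and the 5 cholangiocyte markers to 41.6, 53.9 and 40.8 CPM. What these cells contribute to the 34 genes was not tested.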

How the data were processed

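The authors deposited, for each of the 3 libraries, a read count and an RPKM for every gene, per the file headers, beside gene type, position on mm10 and length. The RPKM equalled the count scaled by that length and the file's total to within 0.000506% where the count was 100 or more. The submitters' processing notes name TopHat2 and mm10. How reads were counted (tool, strand, reads with several placements, annotation) is not given in the sources used here, so genes with close copies, and the 8 of the 34 genes that overlap another gene model, are uncertain.

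TMM factors from edgeR 4.0.16 in R 4.3.3 (0.976 chow, 1.048 high-fat diet, 0.978 DfCS-Ib) turned the deposited counts into CPM. Log2 ratios used CPM plus 1, which understates differences of low genes. Folds come from scaled counts without a pseudocount, with exact 95% intervals from the binomial split of the counts. No p-value was computed, since a group is 1 library. The calculation was tested on simulated data. The 34 genes, the other lists and the rules were chosen with earlier results of these data known. Every one of the 34 is named. From other lists, genes at least 2-fold apart in any comparison could be named, up to the 4 largest per list. Not all of them were, and marker lists hold further genes past 2-fold. Ifnar1, Ifnar2, Jak1, Tyk2, Ifnb1, Ifng and Irf1 were named whatever their values. B2m, Ifnk, Lgals9, the hepatocyte markers and the markers and MHC genes named at or near 0 were chosen after their values were seen. One further gene of the rule is not reported here. Of 214 further list entries 212 were matched. Alternatives were library totals, totals without the 50 most abundant genes, DESeq2 1.42.0 size factors, RPKM, a pseudocount of 0.5, other filters, call rules and the exclusion of overlapping genes; the 1.5-fold rule was added after seeing the data.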

Additional observations from a re-analysis of the deposited data

How the results depend on the processing

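The ratios of the 34 genes over chow stayed above 0 on the log2 scale under each scaling, unit, pseudocount and filter tried, for as many of the genes as each kept. The number at least 2-fold higher on the high-fat diet than in chow was 18 (3.47% of all measured genes). It was 14 of the 25 with a mean of at least 5 CPM (3.37% of all genes at that filter). With the deposited RPKM plus 0.1 it was 25 (5.95% of all), and 31 when 1.5-fold was the rule (10.4% of all). For DfCS-Ib over chow it was 23 (1.62% of all measured genes). It was 15 of the 25 with a mean of at least 5 CPM, where fewer genes were counted (1.46% of all). With totals taken without the 50 most abundant genes it was 20 of 34 (1.43% of all). Of the 26 that overlap no other gene model it was 20 (1.62% of all). It was 25 with no pseudocount and a counting interval not reaching 1 (3.06% of all), and 32 at 1.5-fold (5.69% of all). For DfCS-Ib over the high-fat diet, 1 gene passed 2-fold (4.49% of all measured genes either way). It was 0 with library totals only (4.57% of all). With the deposited RPKM plus 0.1 it was 2, 1 higher and 1 lower (6.19% of all). With no pseudocount and a counting interval not reaching 1 it was 2 (6.91% of all). At 1.5-fold it was 6 (5 higher, 1 lower). At 1.5-fold 14.8% of all measured genes passed either way, so those 6 of 34 are near the background. The median log2 ratio of the 34 genes ranged from 1.02 to 1.28 for the high-fat diet over chow, from -0.00 to 0.10 for DfCS-Ib over the high-fat diet and from 1.12 to 1.29 for DfCS-Ib over chow. Counts of 2 to 60 in several Oas, Mx and Ifi genes limit their ratios, and 1 library per group leaves variation between mice unmeasured. No paired analysis was possible because each group has 1 library.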

Other observations

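Genes of antigen presentation that interferon also induces could be followed only in part. Of 9 genes of MHC class I and its peptide supply, 7 were listed at 0 in all 3 libraries, H2-K1, H2-D1, Tap1 and Psmb8 among them, although liver is known to express them, so a 0 in these files does not show that a gene was silent. B2m, the light chain of MHC class I, and Psmb10, an immunoproteasome subunit, were measured. Psmb10 had 11.7, 24.6 and 14.8 CPM in chow, the high-fat diet and DfCS-Ib, 2.10-fold (1.71 to 2.61) higher on the high-fat diet than in chow. Among the GTPases, Gbp6 had 16, 96 and 36 counts and Gbp10 had 8, 66 and 26, both lower with DfCS-Ib than without, while Gbp3 had 24, 82 and 94.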
